A study of Mus musculus with 12 samples.

Results

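Transcripts of 9 enzymes and subunits of the TCA cycle were followed in the livers of 12 mice, namely Cs, Idh3a, Ogdh, Sucla2, Suclg1, Sdha, Sdhb, Fh1 and Mdh2. They were chosen by gene symbol and are 9 of the 25611 genes in the deposited count table. All 9 were among the 13190 genes with enough reads to be tested. The animals were male C57BL/6J mice of 8 to 10 weeks in 3 groups of 4. Sham mice had the abdomen opened without ligation or puncture, CLP mice had cecal ligation and puncture, a surgical model of sepsis, and CLP+DCA mice had the same operation and an intraperitoneal dose of 25 mg/kg dichloroacetate (DCA) at 24 hr. DCA inhibits pyruvate dehydrogenase kinase and so keeps pyruvate dehydrogenase active. All livers were taken at 30 hr post-surgery, which was 6 hr after the DCA injection. What, if anything, the sham and CLP mice were injected with is not given in the sources used here. No group combined DCA with sham surgery, so the design has no value for DCA without sepsis.

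The TCA cycle is the mitochondrial pathway that oxidizes acetyl-CoA, the product of pyruvate dehydrogenase, and passes the electrons to the respiratory chain. In liver its intermediates are also drawn off for gluconeogenesis, urea synthesis and lipid synthesis. Succinate dehydrogenase belongs to both the cycle and the respiratory chain, where it is complex II. Its substrate succinate is made by succinyl-CoA ligase and its product fumarate is hydrated by fumarase, so that Sucla2, Suclg1, Sdha, Sdhb and Fh1 encode consecutive steps around succinate.

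Among the 9, the transcripts with the largest differences in CLP livers belonged to steps around succinate, though lower levels were not particular to those steps. Sucla2, Suclg1, Sdha and Sdhb were lower in every CLP mouse than in every sham mouse, as were 14.2% of all genes tested, with fitted levels 33.1%, 32.1%, 32.1% and 40.9% lower, whereas Cs, Idh3a and Ogdh, which act earlier in the cycle, differed by at most 5.97%. Idh3b, the partner subunit of Idh3a and not one of the 9, was 39.0% lower and also below sham in every CLP mouse. None of the 9 genes passed an adjusted p of 0.05 in edgeR's quasi-likelihood test over all 12 mice, where 2.78% of all genes did. Under other tools or with the 8 mice compared alone, 4 to 6 of the 9 passed, as given below. Those fits called 5.92% to 13.1% of all genes lower. In CLP+DCA livers Suclg1, Sdha and Sdhb also lay below every sham mouse (4.97% of all genes), as did 4 of 8 other TCA cycle subunits. In the same livers Fh1 lay above every CLP mouse (2.32%).

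The upstream sequences of the 4 genes that separated CLP from sham, and of Cs as one that did not, are shown so that members that separated can be set beside one that did not. They come from RefSeq (build GRCm38.p6), which gave a start site for 8 of the 9 genes, all but Idh3a. Each run lies within the 250 bases before the start site, 5′ to 3′ on the strand of the gene, without bases that any annotated exon covers. Capitals mark matches to the NRF1 motif GCGCANGCG or the SP1 motif GGGCGG on either strand. The runs cover chr13:74350281-74350490 (minus strand) for Sdha, chr4:140961021-140961202 for Sdhb, chr14:73552536-73552664 for Sucla2, chr6:73248255-73248381 for Suclg1 and chr10:128337477-128337726 for Cs, the last 4 on the plus strand.
Sdha: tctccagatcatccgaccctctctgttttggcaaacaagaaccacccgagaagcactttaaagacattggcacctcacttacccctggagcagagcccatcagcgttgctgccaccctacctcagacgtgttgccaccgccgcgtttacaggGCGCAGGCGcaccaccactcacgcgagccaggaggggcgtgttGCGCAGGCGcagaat
Sdhb: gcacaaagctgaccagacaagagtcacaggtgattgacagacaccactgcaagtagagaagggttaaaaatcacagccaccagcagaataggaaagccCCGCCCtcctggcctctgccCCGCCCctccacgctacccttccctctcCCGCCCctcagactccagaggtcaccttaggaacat
Sucla2: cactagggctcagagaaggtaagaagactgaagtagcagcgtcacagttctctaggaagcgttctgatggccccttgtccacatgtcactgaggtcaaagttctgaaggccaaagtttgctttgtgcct
Suclg1: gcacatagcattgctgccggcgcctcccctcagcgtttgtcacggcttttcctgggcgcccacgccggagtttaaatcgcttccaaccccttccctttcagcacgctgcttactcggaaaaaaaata
Cs: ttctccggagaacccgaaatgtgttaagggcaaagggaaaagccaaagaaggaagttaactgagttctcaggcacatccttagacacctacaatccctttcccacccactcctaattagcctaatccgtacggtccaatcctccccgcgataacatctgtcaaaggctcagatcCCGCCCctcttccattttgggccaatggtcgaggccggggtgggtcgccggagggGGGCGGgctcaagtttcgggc

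In all, 8 motifs were searched on both strands of the full 250 bases, and no matches to different motifs overlapped. NRF1 sites, recognized by an activator of many nuclear genes for mitochondrial proteins, were present in 2 of the 8 promoters, Sdha and Sucla2, and in 5.33% of 27025 promoters of the same length. Sdha held 3 of them, beginning 98, 55 and 10 bases before the start, the last in the stretch not shown. The match of Sucla2 began 16 bases before the start, also outside the stretch shown. GGGCGG was found in 5 of the 8, namely Cs, Sucla2, Sdhb, Fh1 and Mdh2, against 32.9% of all promoters. The CREB motif TGACGTCA was in Ogdh and Mdh2 (1.62% of promoters) and the C/EBP motif TTGCNNAA in Sdha (9.55%). None of the 8 held CCGGAAG of the ETS factor GABPA (7.05%), TCAAGGTCA of the estrogen-related receptors (0.366%), AAGATGGCG of YY1 (0.607%) or TTCNNNGAA of the STAT factors (7.18%). Suclg1 held none of the 8 motifs in this window. A match is a description of letters and does not show binding.

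Sequencing depth was 24436513 to 44266819 reads assigned to genes per mouse, and each of the 9 genes had at least 581 reads in every mouse. All 10 hepatocyte markers examined were detected in every mouse. Together they took 6.13 to 8.25% of reads in sham, 2.36 to 4.08% in CLP and 2.33 to 5.43% in CLP+DCA mice. Most of these reads came from Alb, which was 53.8% lower in CLP than in sham. Of the 10 markers 9 were lower in CLP, Apoa1 by 13.6%, and Hnf4a was 3.64% higher. The 30 acute phase genes examined took 11.4 to 13.0% of reads in sham and 21.5 to 36.6% in CLP mice, with replicate 3 the lowest CLP mouse. In CLP+DCA mice they took 15.5 to 20.0% in replicates 1, 2 and 4 and 35.8% in replicate 3, which in this respect stood apart from its group. In bulk liver RNA, fewer hepatocytes, less RNA per hepatocyte and lower expression of single markers such as Alb cannot be told apart. Nothing in the sources used here ties mice of the same number in different groups to one another.

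Levels are given below as CPM, the reads of a gene per 1000000 reads of its library, after TMM normalization of the library sizes. To compare genes with one another, CPM was divided by exonic length in kilobases. On that scale the sham means ± SD (n = 4) were 139.3 ± 7.30 for Sdha, the flavoprotein subunit of succinate dehydrogenase, and 116.4 ± 6.12 for its iron-sulfur subunit Sdhb. Mdh2 stood at 107.3 ± 5.38, Suclg1 at 104.6 ± 6.06 and Fh1 at 86.0 ± 19.4 CPM per kilobase. The lower part of the order was formed by Sucla2 at 52.3 ± 2.04, Ogdh at 40.4 ± 1.85, Cs at 31.6 ± 3.20 and Idh3a at 11.5 ± 1.73. Neighbours whose mean ± 1 SD ranges met were Sdhb and Mdh2, Mdh2 and Suclg1, and Suclg1 and Fh1. These ranges describe the spread between mice and cannot decide the order of genes measured in the same mice, which was not tested. In CLP mice Sdha stood at 94.6 ± 10.8 and Mdh2 at 92.4 ± 13.6, followed by Suclg1 at 71.0 ± 9.65, Sdhb at 68.8 ± 16.2 and Fh1 at 61.3 ± 9.41 CPM per kilobase. Sdha thus lay near the level of Mdh2 in CLP liver, where both means were below those of sham. Sucla2 at 35.0 ± 7.01 no longer stood above Ogdh at 39.5 ± 3.79. In CLP+DCA mice the order began with Sdha at 101.4 ± 18.0, Mdh2 at 98.8 ± 7.40, Sdhb at 87.4 ± 25.1, Fh1 at 86.2 ± 12.9 and Suclg1 at 76.9 ± 17.7 CPM per kilobase, whose ranges met from each to the next.

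The first question was whether sepsis was accompanied by lower transcripts of the cycle (CLP versus sham). Over all genes, edgeR's quasi-likelihood test with Benjamini-Hochberg adjustment called 367 of 13190 genes (2.78%) at an adjusted p of 0.05, and 0 of the 9. At an unadjusted p of 0.05, 5 of the 9 were lower, against 13.1% of all genes. In 4 of the 9, every CLP mouse lay below every sham mouse, which was so for 14.2% of all genes. Of the fitted log2 fold changes, 8 were negative and 1 positive. Their median was -0.49, and that of all genes was 0.018.

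The largest of the 9 differences belonged to a subunit of succinate dehydrogenase. Sdhb, which carries the iron-sulfur clusters, stood at 133.2, 123.1, 139.4 and 135.8 CPM in sham replicates 1 to 4, at 81.8, 63.8, 103.4 and 65.2 CPM in CLP and at 111.3, 112.1, 57.0 and 118.7 CPM in CLP+DCA replicates. All CLP mice were below the lowest sham mouse, CLP replicate 3 was nearest to sham, and CLP+DCA replicate 3 was the lowest of the 12. The log2 fold change, CLP versus sham, was -0.76 with a standard error of 0.22 and a 95% interval of -1.24 to -0.28 (edgeR adjusted p = 0.070). Sdha, which oxidizes succinate and holds the flavin cofactor, stood at 377.9, 426.2, 396.9 and 414.8 CPM in sham, 267.5, 249.0, 320.0 and 261.0 in CLP and 295.6, 285.6, 234.3 and 361.1 in CLP+DCA replicates 1 to 4. All sham mice were above all 8 mice with cecal ligation. The log2 fold change, CLP versus sham, was -0.56 with a standard error of 0.14 and an interval of -0.86 to -0.26 (edgeR adjusted p = 0.053), the smallest adjusted p of the 9 genes.

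Succinyl-CoA ligase pairs a shared alpha subunit, Suclg1, with either the ATP-forming beta subunit Sucla2 or the GTP-forming one, Suclg2. Suclg1 stood at 153.0, 164.3, 168.8 and 149.4 CPM in sham, 109.6, 92.1, 127.0 and 102.5 in CLP and 123.6, 130.0, 77.3 and 136.4 in CLP+DCA replicates 1 to 4. Here too the lowest sham mouse was above all CLP and CLP+DCA mice. CLP differed from sham by -0.56 on the log2 scale (standard error 0.17, interval -0.92 to -0.20, edgeR adjusted p = 0.073). Sucla2 stood at 115.4, 118.6, 110.9 and 121.5 CPM in sham, 78.0, 66.2, 100.1 and 67.7 in CLP and 96.3, 92.7, 69.3 and 111.7 in CLP+DCA replicates 1 to 4. All CLP mice were below sham, and in CLP+DCA only replicate 4 reached the sham range. CLP differed from sham by -0.58 (standard error 0.16, interval -0.93 to -0.24, edgeR adjusted p = 0.064). In Sdha, Sdhb, Suclg1 and Sucla2 alike, CLP replicate 3 was the highest CLP mouse and CLP+DCA replicate 3 the lowest CLP+DCA mouse.

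Fumarase and malate dehydrogenase followed with smaller or more variable differences. Fh1 stood at 234.1, 217.7, 165.1 and 289.5 CPM in sham, 142.0, 181.7, 184.3 and 138.4 in CLP and 216.1, 194.7, 223.3 and 274.8 in CLP+DCA replicates 1 to 4. Sham replicate 3 lay within the CLP range, so these groups overlapped, and the coefficient of variation in sham mice was 22.6%, the highest of the 9 genes in that group. CLP differed from sham by -0.49 (standard error 0.18, interval -0.88 to -0.10, edgeR adjusted p = 0.110). GENCODE places Kmo, which is on the opposite strand, over part of Fh1, and the strand setting of the counting is not given in the sources used here. In the deposited coordinates the 2 genes do not overlap. Mdh2, the mitochondrial malate dehydrogenase that closes the cycle, had 156.3 ± 7.83 CPM in sham, 134.6 ± 19.7 in CLP and 143.8 ± 10.8 in the CLP+DCA mice (SD, n = 4). CLP replicate 3 stood at 161.4 CPM, within the sham range of 149.6 to 167.6, and the other CLP mice at 120.7, 137.4 and 118.7 CPM, below it. The log2 difference was -0.22 (interval -0.46 to 0.03, edgeR adjusted p = 0.222).

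Of the 9, the 3 subunits that act before succinyl-CoA ligase had the smallest differences between CLP and sham, which did not hold for Idh3b, described below. Cs, citrate synthase, which condenses acetyl-CoA with oxaloacetate, stood at 101.9, 95.25, 92.85 and 79.6 CPM in sham, 85.9, 77.88, 104.0 and 79.68 in CLP and 79.21, 73.81, 77.85 and 79.62 in CLP+DCA replicates 1 to 4. The highest of the 12 was a CLP mouse, and 3 of the 4 CLP+DCA mice lay below every sham mouse. CLP differed from sham by -0.09 (interval -0.33 to 0.15, edgeR adjusted p = 0.596). Ogdh, the E1 subunit of the oxoglutarate dehydrogenase complex, had 179.8 ± 8.23 CPM in sham, 175.7 ± 16.9 in CLP and 171.5 ± 15.4 in the CLP+DCA mice, and differed by -0.03 (interval -0.26 to 0.19, edgeR adjusted p = 0.847). Idh3a, the catalytic subunit of NAD-dependent isocitrate dehydrogenase, had 29.6 ± 4.45, 29.9 ± 3.52 and 29.5 ± 5.36 CPM, and differed by 0.02 (interval -0.30 to 0.34, edgeR adjusted p = 0.952). The groups overlapped in all 3 genes. The signs of these 3 small values turned under some settings, which the closing section gives, and with library sizes that left out the acute phase genes Cs and Ogdh were higher in CLP by 0.04 and 0.10.

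**Figure D1:**
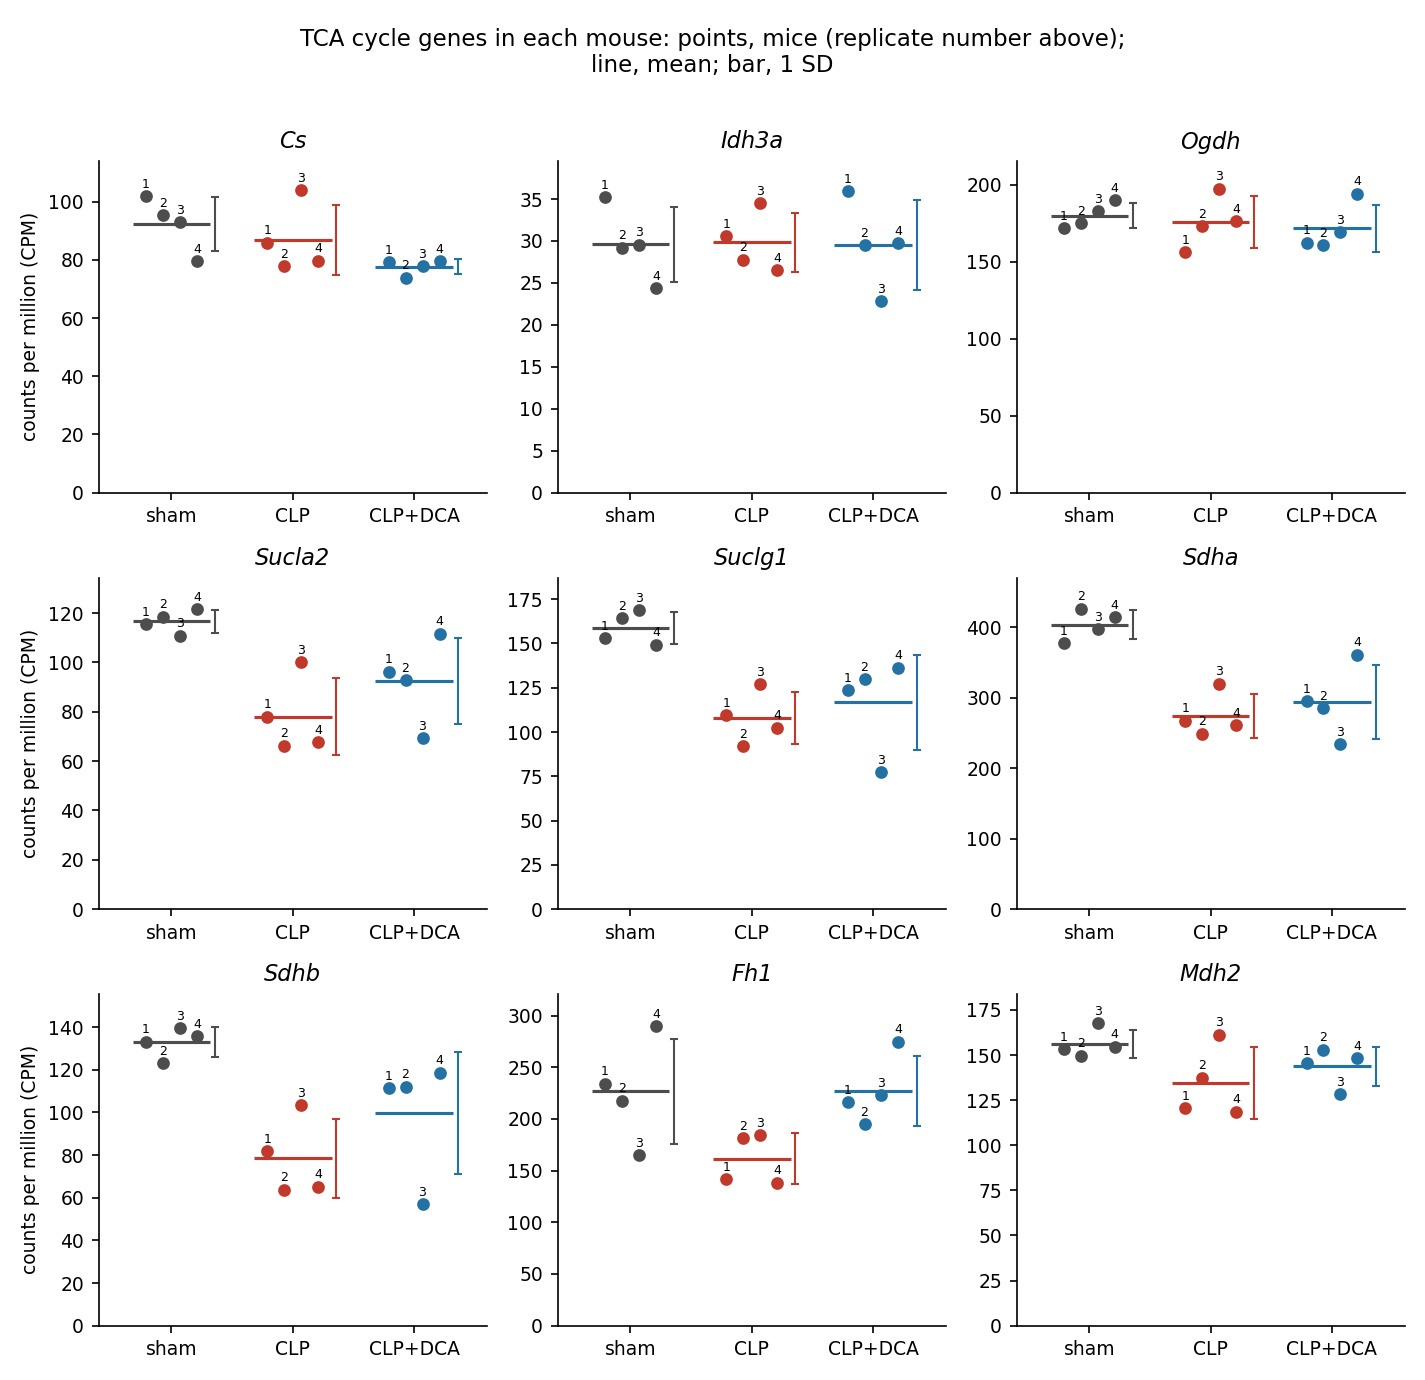
CPM (vertical axis, from 0, a separate scale for each gene) of the 9 genes in each of 12 mice, in columns for sham, CLP and CLP+DCA. Points are mice with the replicate number above, lines are means and bars 1 SD. In Sucla2, Suclg1, Sdha and Sdhb all CLP points lie below all sham points, and in Sdhb CLP+DCA replicate 3 lies at 57.0 CPM, apart from the other CLP+DCA mice.

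Whether members were called depended on the fit. DESeq2 on the 8 CLP and sham mice called 5 of the 9, all lower (Sucla2, Suclg1, Sdha, Sdhb and Fh1), where 11.5% of all genes tested were called lower. DESeq2 on all 12 mice called Sucla2, Suclg1, Sdha and Sdhb (5.92% of genes called lower), as did edgeR on the 8 mice (8.99%). limma's voom with sample quality weights called these 4, Fh1 and Mdh2 (13.1%). In edgeR without CLP replicate 3, the same 4 were called (3.26%), Suclg1 at an adjusted p that rounds to 0.050, and without CLP+DCA replicate 3, a mouse of neither group, they were called too (11.5%). Without CLP+DCA replicate 4, Sdha alone was called (1.6%). In terms of overlap, 5 members were below sham without CLP replicate 3, the fifth being Mdh2, where 19.9% of all genes were.

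**Figure D2:**
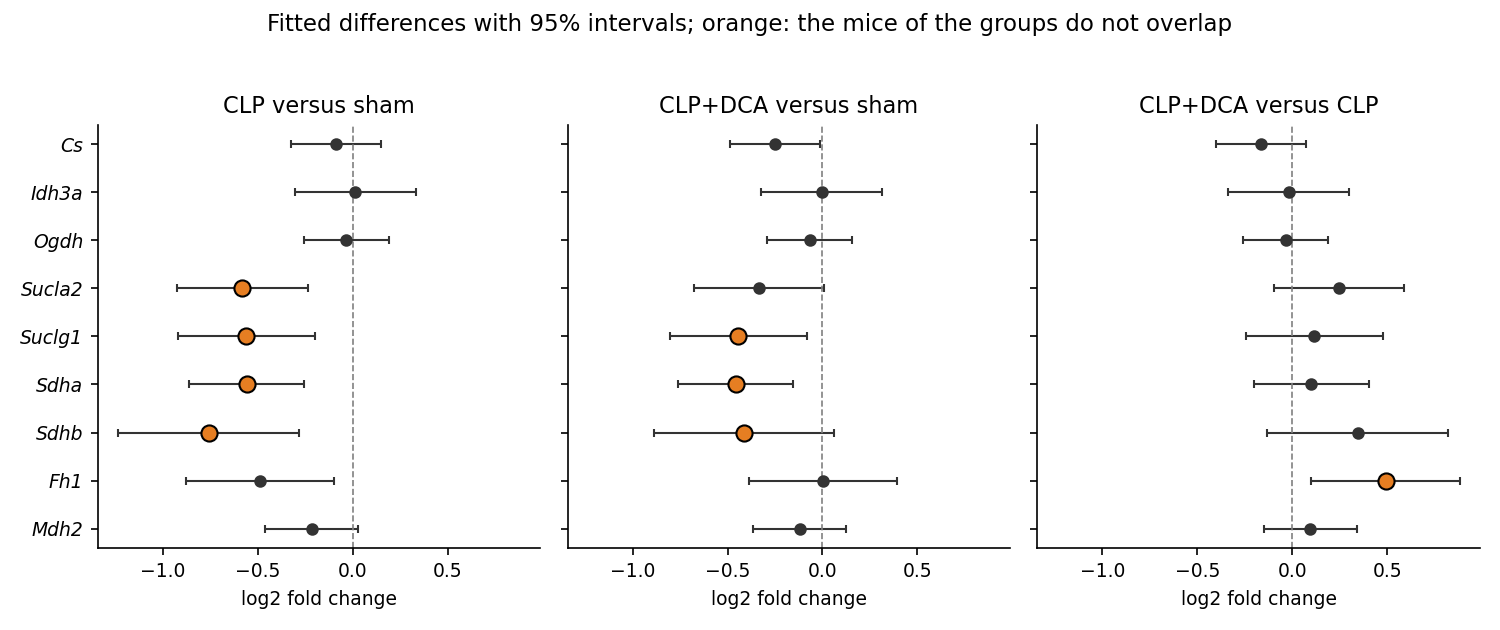
Log2 fold changes of the 9 genes (horizontal axis) from edgeR's fit over 12 mice in the 3 comparisons, with 95% intervals as bars. Orange points are genes whose groups do not overlap: Sucla2, Suclg1, Sdha and Sdhb in CLP versus sham, Suclg1, Sdha and Sdhb in CLP+DCA versus sham, and Fh1 in CLP+DCA versus CLP.

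The second comparison, CLP+DCA versus sham, used the same sham mice as the first, so the values of both stand side by side and are not independent. edgeR called 5 of 13190 genes (0.0379%) and 0 of the 9. At an unadjusted p of 0.05, 3 of the 9 were lower (Cs, Suclg1 and Sdha), against 4.85% of all genes. Suclg1, Sdha and Sdhb were below every sham mouse, which held for 4.97% of genes, and without CLP+DCA replicate 3 the same 3 genes were, then against 6.48%. The log2 differences were -0.44 for Suclg1 (interval -0.81 to -0.08, edgeR adjusted p = 0.319), -0.46 for Sdha (-0.76 to -0.16, adjusted p = 0.275) and -0.41 for Sdhb (-0.89 to 0.06, adjusted p = 0.427). For Sucla2 it was -0.33 (-0.68 to 0.01, edgeR adjusted p = 0.393). Cs differed by -0.25 (-0.49 to -0.01, edgeR adjusted p = 0.366), more than in CLP versus sham. Fh1 stood at 227.2 ± 34.0 CPM against 226.6 ± 51.2 in sham, a log2 difference of 0.00 with an interval of -0.39 to 0.39. The median of the 9 log2 differences was -0.25, and that of all genes 0.014. DESeq2 on all 12 mice called Sdha (0.586% of genes called lower), and voom called Suclg1 and Sdha (1.65%).

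The third question was whether transcripts of the cycle differed between septic mice with and without DCA (CLP+DCA versus CLP). edgeR called 1 of 13190 genes (0.00758%) and 0 of the 9. Fh1, which hydrates fumarate to malate, was higher in every CLP+DCA mouse than in every CLP mouse, which was so for 2.32% of all genes. It stood at 227.2 ± 34.0 CPM against 161.6 ± 24.8, 40.6% higher, a log2 difference of 0.49 (standard error 0.18, interval 0.10 to 0.88, edgeR adjusted p = 0.414). It was also the 1 member with an unadjusted p under 0.05, against 5.06% of genes that were higher at that level. Sdhb differed by 0.34 (interval -0.13 to 0.82) and Sucla2 by 0.25 (-0.10 to 0.59), each with overlapping groups, and Suclg1, Sdha and Mdh2 by 0.12, 0.10 and 0.10. Cs differed by -0.16 (-0.40 to 0.08). The interval of Sdhb included 0 and also a difference as large as the one between CLP and sham.

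CLP+DCA replicate 3 bore on this comparison. In that mouse Sdhb, Suclg1, Sdha and Idh3a were below all CLP mice, as was Cs by a margin in the last digit. Without it, Sdhb was higher in CLP+DCA than in CLP by 0.54 (edgeR adjusted p = 0.057), Sucla2 by 0.36 (adjusted p = 0.114), Suclg1 by 0.27 (adjusted p = 0.140), Sdha by 0.19 (adjusted p = 0.310) and Fh1 by 0.50 (adjusted p = 0.117). Fh1 and Sdhb then did not overlap between groups, against 12.4% of all genes. Without CLP replicate 3, Fh1 alone did not (4.38%). The fit with voom, which gives less weight to samples that vary more, called Sucla2 and Sdhb as higher in CLP+DCA (4.93% of genes). The median of the 9 log2 differences was 0.10 with all mice and 0.19 without CLP+DCA replicate 3.

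Per mouse, the mean log2 level of the 9 genes relative to the sham mean was -0.41, -0.47, -0.10 and -0.50 in CLP replicates 1 to 4 and -0.17, -0.23, -0.53 and -0.05 in CLP+DCA replicates 1 to 4, and between -0.02 and 0.03 in sham mice. The share of reads from the 30 acute phase genes in the same mice was 25.1, 36.6, 21.5 and 33.7% in CLP and 17.0, 20.0, 35.8 and 15.5% in CLP+DCA replicates 1 to 4. The same mice stood out in both. CLP replicate 3 had the lowest acute phase share and the highest TCA level of its group, and CLP+DCA replicate 3 the highest share and the lowest level. The number of the 9 genes below every sham mouse did not follow the same order, with 7, 6, 4 and 6 in CLP and 7, 6, 8 and 4 in CLP+DCA replicates 1 to 4. Both measures come from the same libraries, where more reads from some genes leave fewer for the others, and the part of the acute phase share in the lower levels was not tested. With library sizes that left those genes out, the median of the 9 in CLP versus sham was -0.35 and that of all genes 0.15, and with library size alone they were -0.65 and -0.16. Another library size shifts all genes by about the same amount, so these values do not bear on the acute phase share.

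**Figure D3:**
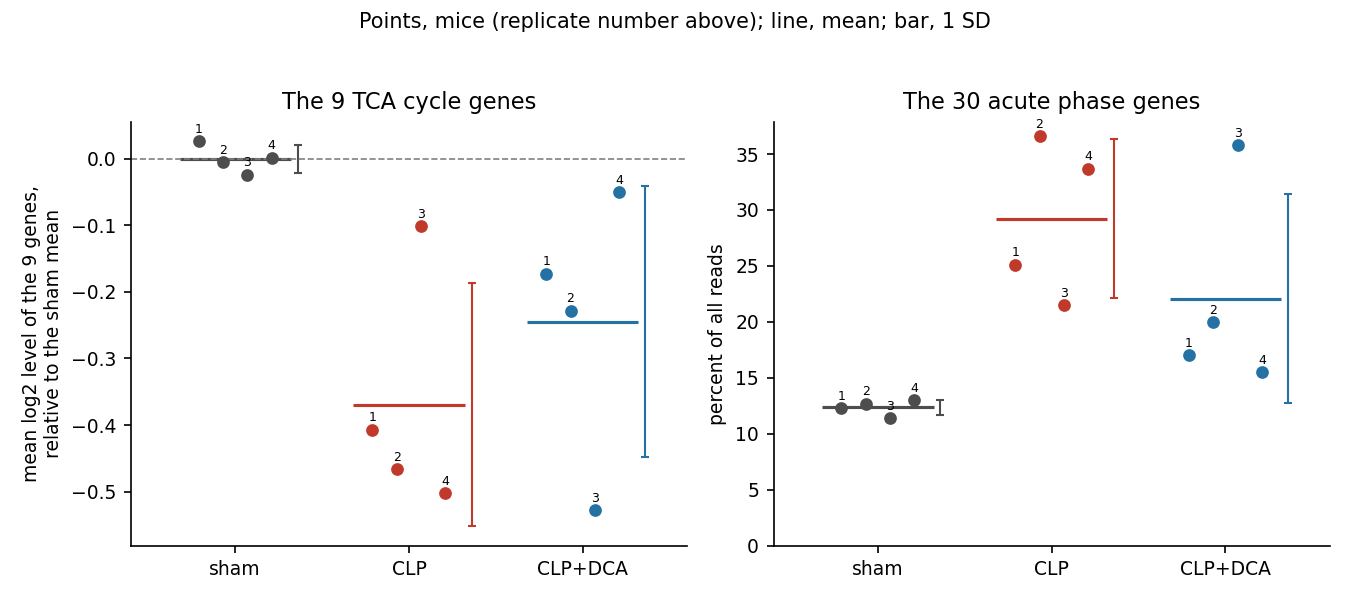
Left, mean log2 level of the 9 TCA cycle genes in each mouse relative to the sham mean (vertical axis). Right, share of all reads from the 30 acute phase genes, in percent. Points are mice with replicate numbers, lines means and bars 1 SD. CLP replicate 3 is nearest to sham in both panels among the CLP mice, and CLP+DCA replicate 3 is farthest among the CLP+DCA mice, at -0.53 and 35.8%.

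Of the TCA cycle subunits that were not among the members, 8 were fitted in the same way, namely Idh3b, Idh3g, Idh2, Dlst, Dld, Suclg2, Sdhc and Sdhd. In CLP versus sham 0 of the 8 were called, their log2 differences were all negative, and the median was -0.26. Idh3b, Suclg2, Dld, Sdhc and Sdhd were below every sham mouse in every CLP mouse, as were 14.2% of all genes tested. For Sdhc the margin was small, with 127.6 CPM in CLP replicate 3 and 127.8 in sham replicate 1. Idh3b, a regulatory subunit of NAD-dependent isocitrate dehydrogenase, stood at 121.5, 124.9, 130.0 and 126.4 CPM in sham and 77.4, 63.6, 103.5 and 62.0 in CLP mice, a log2 difference of -0.71 (interval -1.16 to -0.27, edgeR adjusted p = 0.070). Suclg2 stood at 249.8, 309.5, 265.2 and 258.1 CPM in sham and 186.4, 160.8, 209.4 and 172.5 in CLP mice, a difference of -0.57 (interval -0.94 to -0.20, edgeR adjusted p = 0.074). The remaining subunits are given to complete the complexes and were named after their values were seen. Sdhc and Sdhd, which anchor succinate dehydrogenase in the inner membrane, differed by -0.23 and -0.36, and Dld, the shared E3 subunit, by -0.28. Idh3g, Idh2 and Dlst differed by -0.23, -0.23 and -0.16. The log2 differences of the 7 subunits of succinyl-CoA ligase and succinate dehydrogenase ranged from -0.76 to -0.23. Idh3b, Dld, Idh3g and Idh2, which act earlier, lay within that range, with Idh3g and Idh2 close to its upper end. In CLP+DCA versus sham 0 of the 8 were called and the median was -0.26. Idh3b, Idh2, Suclg2 and Sdhd were then below every sham mouse (4.97% of all genes). Idh2 differed by -0.48 from sham (edgeR adjusted p = 0.353) and by -0.25 from CLP (adjusted p = 0.711).

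**Figure D4:**
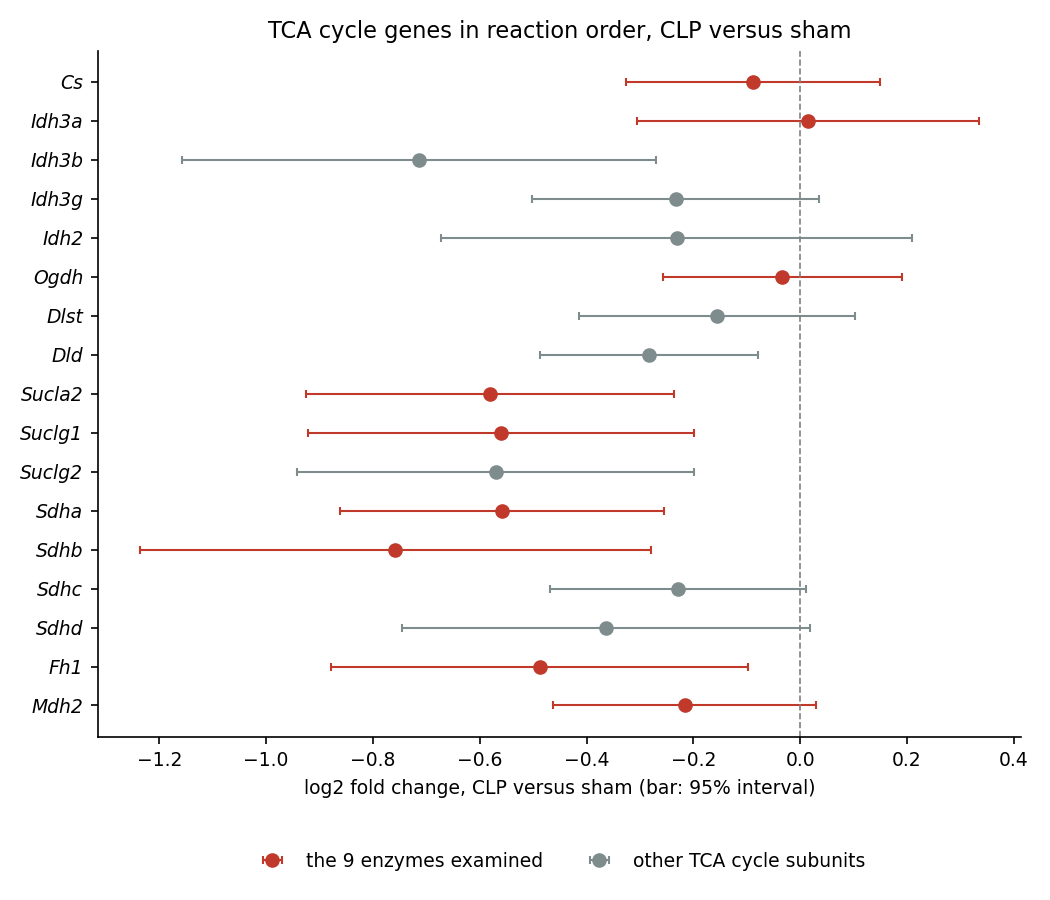
Log2 fold changes, CLP versus sham (horizontal axis, bars are 95% intervals), of TCA cycle genes in the order of their reactions from citrate synthase to malate dehydrogenase. Red marks the 9 enzymes examined and grey the 8 other subunits. Values near 0 are those of Cs, Idh3a and Ogdh, and the lowest are those of Sdhb at -0.76 and Idh3b at -0.71.

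Ratios of reads within a mouse do not depend on library size. For 7 pairs of subunits or related enzymes, 21 group comparisons were made with two-sided exact permutation tests. Their smallest possible p with 4 against 4 mice is 0.0286. To pass Benjamini-Hochberg adjustment over the 21, most of the comparisons would have had to reach that smallest p. None passed, and the adjusted values therefore cannot decide whether a single ratio differed. The Idh3a to Idh3b ratio was 0.290, 0.234, 0.227 and 0.193 in sham, 0.395, 0.437, 0.334 and 0.429 in CLP and 0.374, 0.283, 0.393 and 0.267 in CLP+DCA replicates 1 to 4. All CLP mice were above all sham mice, with a log2 difference of 0.76 (exact permutation p = 0.0286, adjusted p = 0.15). The Sdha to Sdhc ratio was 2.96, 3.11, 2.79 and 3.22 in sham and 2.43, 2.20, 2.51 and 2.45 in CLP mice, a log2 difference of -0.33 without overlap (exact permutation p = 0.0286, adjusted p = 0.15). The Sdha to Sdhb ratio overlapped, with a log2 difference of 0.22 (exact permutation p = 0.114, adjusted p = 0.3). The subunits of succinyl-CoA ligase kept nearly constant proportions between CLP and sham, with log2 differences of -0.03 for Sucla2 to Suclg2 and 0.00 for Suclg1 to Suclg2. In CLP+DCA versus CLP the Suclg1 to Suclg2 ratio was lower without overlap, by -0.09 on the log2 scale (exact permutation p = 0.0286, adjusted p = 0.15). Here the groups nearly met, with 0.572 in CLP+DCA replicate 1 and 0.573 in CLP replicate 2. The Mdh2 to Mdh1 ratio, mitochondrial to cytosolic malate dehydrogenase, was 0.296, 0.298, 0.326 and 0.282 in sham and 0.381, 0.392, 0.458 and 0.340 in CLP+DCA mice, a log2 difference of 0.38 without overlap (exact permutation p = 0.0286, adjusted p = 0.15). Ogdh to Dlst overlapped in each comparison.

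**Figure D5:**
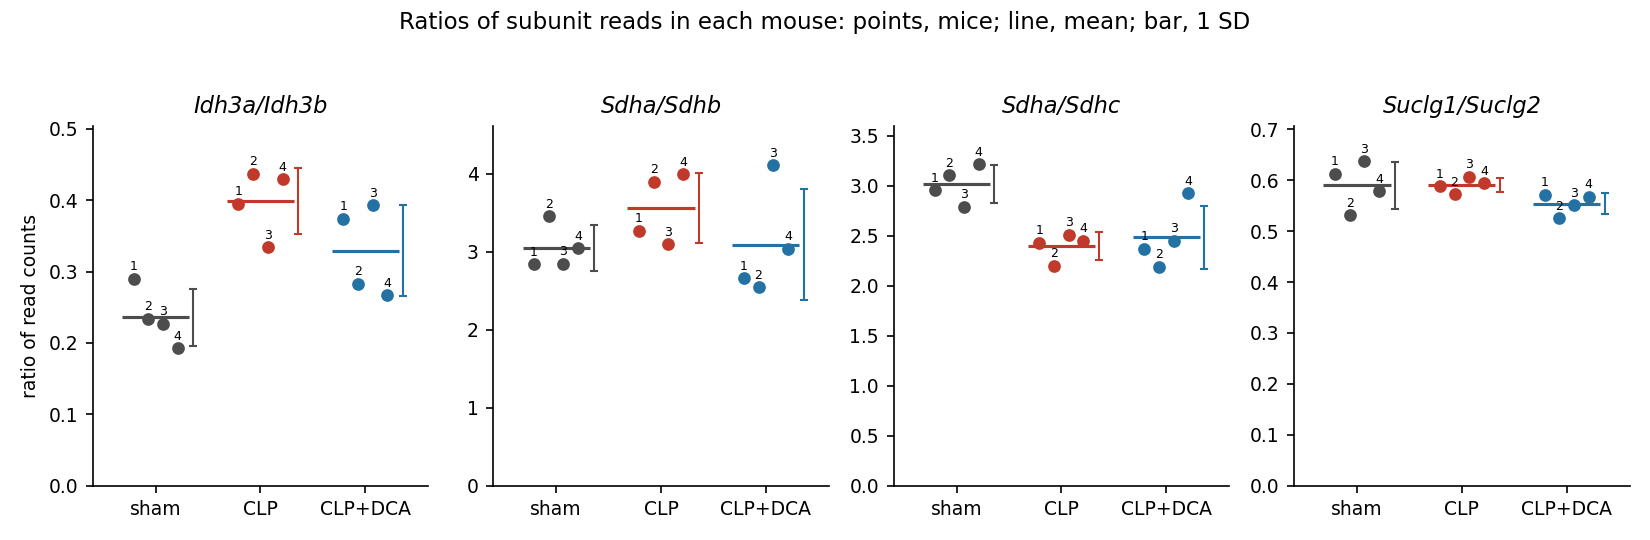
Ratios of read counts in each mouse (vertical axes, from 0) for 4 of the 7 pairs. Points are mice with replicate numbers, lines means and bars 1 SD. Idh3a to Idh3b is higher in all CLP mice (0.334 to 0.437) than in all sham mice (0.193 to 0.290), Sdha to Sdhc is lower in all CLP mice, and Suclg1 to Suclg2 lies near 0.6 in sham and CLP mice.

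Genes around the cycle were examined as lists. Of the 4 assembly factors of succinate dehydrogenase, 0 were called in CLP versus sham and their median was -0.06. The smallest p belonged to Sdhaf1 (0.28, edgeR adjusted p = 0.199) and Sdhaf4 (-0.29, adjusted p = 0.236). Of 20 genes that feed or drain the cycle, 19 were tested and 1 was called, where 2.78% of all genes were. The gene called was Pccb, a subunit of propionyl-CoA carboxylase on the route to succinyl-CoA. It stood at 110.0 CPM in CLP against 154.2 in sham, a log2 difference of -0.49 (edgeR adjusted p = 0.046). Mdh1 came next (-0.50, edgeR adjusted p = 0.061), and the median of the 19 was -0.31. Of 14 genes of mitochondrial import, chaperones, proteases and DNA maintenance, 3 were called, all lower in CLP, against 2.78% of all genes called in either direction. They were the protease Lonp1 (-0.57, edgeR adjusted p = 0.025), the import motor subunit Timm44 (-0.63, adjusted p = 0.029) and the chaperone Hspa9 (-0.50, adjusted p = 0.048), and the median of the 14 was -0.30. Of 8 transcriptional regulators of mitochondrial genes 0 were called, and the smallest p belonged to the coactivator Ppargc1b (-0.91, edgeR adjusted p = 0.069) and the fatty acid oxidation regulator Ppara (-0.83, adjusted p = 0.087). In both DCA comparisons 0 genes of these lists were called.

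Succinate and itaconate are linked to the cycle by Acod1, which makes itaconate, an inhibitor of succinate dehydrogenase, and by the succinate receptor Sucnr1. Acod1 had too few reads to be tested. Its counts were 2, 1, 3 and 5 in sham, 46, 12, 21 and 4 in CLP and 8, 5, 6 and 0 in CLP+DCA replicates 1 to 4. The CLP counts were higher in 3 of the 4 mice than in any other mouse. Sucnr1 stood at 14.3, 15.1, 19.8 and 12.3 CPM in sham, 6.42, 2.44, 10.7 and 6.24 in CLP and 9.73, 6.55, 0.839 and 12.3 in CLP+DCA mice. CLP was below sham without overlap, by -1.23 on the log2 scale (edgeR adjusted p = 0.194). Of the 4 close relatives of the members, Csl had 0 to 3 reads per mouse, Ogdhl 0 to 7 and Mdh1b 0 or 1, and none of these 3 was tested. Dhtkd1, which resembles Ogdh, stood at 37.8 ± 6.02 CPM in sham and 23.0 ± 6.07 in CLP mice (SD, n = 4), a log2 difference of -0.71 (edgeR adjusted p = 0.220). No stretch of 100 bases, the read length, was shared between the exons of a member and another annotated gene.

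The genes outside all lists that followed the mean of the 9 most closely over the 12 mice were Atp5a1, a subunit of ATP synthase (Pearson r = 0.969), Eif4a2 (0.963), Paip2 (0.961), Uqcrfs1, the Rieske protein of complex III (0.961), and Mrpl3 of the mitochondrial ribosome (0.954). With the group means taken off, so that differences between groups did not enter, they were Gatsl2 (0.970), Uqcc1 (0.965), Rsrc1 (0.963), Atp5a1 (0.957) and Uqcrc2 (0.956). Atp5a1 was in both sets. These values describe likeness over 12 libraries that also share their normalization, and the genes were selected as the highest of all genes tested. In CLP versus sham, Uqcrc2, a core protein of complex III, differed by -0.56 (edgeR adjusted p = 0.046) and Atp5a1 by -0.42 (adjusted p = 0.087).

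Marker lists of liver cell types were compared between CLP and sham. Of 10 hepatocyte markers, 2 were called, both lower in CLP (Alb and Apoc3), against 2.78% of all genes called in either direction. The median of the 10 was -0.85, with Ass1 counted though it averaged 0.69 CPM in sham and 0.28 in CLP mice. Of 10 neutrophil markers 8 were tested, 1 was called, higher, and the median was 2.35. Of their log2 differences 7 were positive, and that of Ly6g was -0.78. The summed level of the 10 was 6.39 to 9.11 CPM in sham, 30.4 to 38.8 in CLP and 6.48 to 49.98 in CLP+DCA mice. Mpo had 0 reads in at least 1 CLP and 1 CLP+DCA mouse. The summed Kupffer cell and macrophage markers ranged from 148.9 to 253.1 CPM in sham, 233.4 to 310.8 in CLP and 197.3 to 386.1 in CLP+DCA mice. Among them Marco averaged 9.90 CPM in sham and 58.5 in CLP mice. Of these 8 log2 differences 7 were positive, that of Clec4f was -0.28, and the median was 0.27. Of 8 Kupffer cell and macrophage, 6 endothelial and 8 stellate cell and cholangiocyte markers, 0 were called, nor were any of the 3 lymphocyte markers tested of 8. Of the 30 acute phase genes, 17 were called higher in CLP. The part of cell composition in the levels of the TCA cycle genes was not tested.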

How the data were processed

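Whole liver RNA of 12 mice was sequenced by the authors (poly(A) libraries, paired 100-base reads), aligned to mm10 with STAR 2.5, counted per gene with featureCounts (Subread 1.5.0-p1) and deposited as raw counts per gene. The annotation, the strand setting and the handling of reads that map to several places are not given in the sources used here. Columns matched the sample titles. The counts were fitted in edgeR 4.0.16 (R 4.3.3) over all 12 mice, with genes of at least 10 reads by filterByExpr (13190 genes), TMM normalization, the robust quasi-likelihood test and Benjamini-Hochberg adjustment over all genes at 0.05. The study used DESeq2. DESeq2 1.42.0, limma 3.58.1 and the other alternatives are in the closing section. CPM used TMM library sizes, and lengths were the exons of the GENCODE vM21 annotation. Ratios added 0.5 to each count. One of the TCA cycle genes beside the members, with the ratio that used it, is not reported here, and counts and adjusted p-values of its list and of the ratios are without it.

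The members, the lists and the tests were chosen with earlier results of these data known. The text names all 9 members, and of each list the genes called in CLP versus sham (at most 6) or, with fewer than 2 called, the 2 with the smallest p. Acod1, Sucnr1, 4 relatives of the members and the 5 genes most like them are always given. Marker and acute phase lists are given as counts, with the called hepatocyte markers named, and some markers that weigh in a sum or differ from their list. Depth was 24436513 to 44266819 reads, and with 4 mice per group the spread between mice, not counting error, limited precision.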

Additional observations from a re-analysis of the deposited data

Results flagged for a closer look

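One value among the 27 combinations of gene and group lay far from the rest of its group. Sdhb stood at 57.01 CPM in CLP+DCA replicate 3, against 111.3, 112.1 and 118.7 CPM in the other CLP+DCA mice, and its gap to the nearest of them was 0.881 of the range of the group, above Dixon's critical value of 0.829. Chance alone gives such a value in about 1 of 20 groups. In the same mouse the acute phase genes took 35.8% of reads, against 15.5 to 20.0% in the other 3 mice, and Idh3b stood at 58.2 CPM against 96.0 to 111.2. Without this mouse the log2 difference of Sdhb was 0.54 between CLP+DCA and CLP, in place of 0.34, and -0.22 between CLP+DCA and sham, in place of -0.41.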

How the results depend on the processing

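The median log2 fold change of the 9 genes kept its sign in each of the 3 comparisons under every setting tried. In CLP versus sham it ranged from -0.65 to -0.35. It moved by less than 0.246, the pooled SD within groups of the median log2 level of the 9 genes in single mice. That SD is a spread of single mice and not the error of a difference between groups of 4. Sucla2, Suclg1, Sdha and Sdhb were lower in CLP in every setting. The number of members called in CLP versus sham was 0 in the main fit and 0 to 4 when single mice were left out. It was 4 with DESeq2 on 12 mice, 5 with DESeq2 on 8, 4 with edgeR on 8 and 6 with voom. These 4 fits called 5.92%, 11.5%, 8.99% and 13.1% of all genes lower. In CLP+DCA versus sham it was 1 with DESeq2 on 12 mice (0.586% of genes called lower) and 2 with voom (1.65%). In CLP+DCA versus CLP it was 2 with voom (4.93% called higher). Of the 8 other subunits, 3, 5, 3 and 6 were called in CLP versus sham with these 4 fits, beside the same shares of all genes. In addition 1 was called with library size alone, 0 to 4 without single mice, and 1 in CLP+DCA versus CLP with voom. Members without overlap in CLP+DCA versus CLP numbered 1 without CLP replicate 3 (4.38% of all genes) and 2 without CLP+DCA replicate 3 (12.4%), settings chosen after seeing the data.

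Genes called in CLP versus sham numbered 367, and 1894 (DESeq2, 12 mice), 3428 (DESeq2, 8 mice), 2387 (edgeR, 8 mice), 3453 (voom), 122 (no filter) and 10 to 3157 (without single mice, lowest without sham replicate 3 and highest without CLP+DCA replicate 3). In CLP+DCA versus sham they numbered 5, and 247, 169, 0 and 496 with these 4 fits, 3 with library size alone and 1 to 11 without single mice. In CLP+DCA versus CLP they numbered 1, and 136, 80, 0 and 1341, 0 with library sizes without the acute phase genes and 0 to 616 without single mice. The split of calls in CLP versus sham was 216 higher and 151 lower, 452 and 95 with library sizes without the acute phase genes, and 122 and 147 with library size alone. The cause of these differences was not tested.

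Signs turned for small values. Without the acute phase genes in the library size, CLP versus sham was 0.045 for Cs and 0.10 for Ogdh, and CLP+DCA versus sham was 0.11 for Idh3a and 0.049 for Ogdh. With library size alone, Idh3a was -0.15 in CLP versus sham and 0.10 in CLP+DCA versus CLP, where Ogdh was 0.077. With voom, Idh3a was -0.039, 0.13 and 0.17 in the 3 comparisons, and with no filter -0.00092 in CLP versus sham. Fh1 in CLP+DCA versus sham was -0.0018 and -0.0014 with DESeq2 on 12 and 8 mice, -0.027 with voom, -0.00075 with RLE, -0.051 with library size alone and -0.0038 with no filter. Without single mice, CLP versus sham ranged from -0.070 to 0.11 for Idh3a and -0.093 to 0.018 for Ogdh, CLP+DCA versus sham from -0.11 to 0.10 for Idh3a and -0.12 to 0.14 for Fh1, and CLP+DCA versus CLP from -0.13 to 0.085 for Idh3a, -0.098 to 0.026 for Ogdh and -0.013 to 0.19 for Sdha. Ratios without single mice ranged from -0.086 to 0.013 for Sucla2 to Suclg2 and -0.0448 to 0.0424 for Suclg1 to Suclg2 in CLP versus sham, from -0.15 to 0.080 for Sdha to Sdhb, -0.022 to 0.12 for Sucla2 to Suclg2 and -0.028 to 0.094 for Ogdh to Dlst in CLP+DCA versus sham, and from -0.0374 to 0.103 for Sdha to Sdhc in CLP+DCA versus CLP.

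The mice share only a replicate number. Correlations of the deviations of same-numbered mice from their group means were -0.05 to 0.09 between CLP and sham, -0.16 to 0.09 between CLP+DCA and sham and -0.46 to 0.55 between CLP+DCA and CLP, and not every mouse correlated best with its own number. With the replicate number as a block, 46, 0 and 4 genes were called in the 3 comparisons, 0 members, and the members' medians were -0.47, -0.25 and 0.10. For the ratios the smallest p that 4 pairs allow is 0.125.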
